A study of Mus musculus with 31 samples.

Results

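The unfolded protein response and the integrated stress response were examined in Ly6C-high monocytes through 40 genes, each found by its symbol among the 24411 entries of the deposited count table. They fall into an ATF4 arm of 17 genes (targets and partners of the transcription factor ATF4), an XBP1/ATF6 chaperone arm of 17 genes (folding and degradation machinery of the endoplasmic reticulum, ER) and 6 sensors and regulators. RNA-seq covered 9 libraries, 3 from each of 3 groups of C57BL/6J mouse samples: blood monocytes of tumor-free mice (healthy blood), monocytes from the blood of mice carrying a subcutaneous Lewis lung carcinoma, a transplanted mouse lung cancer cell line abbreviated LLC (LLC blood), and monocytes from the LLC tumors themselves (LLC tumor). Every group was sorted by flow cytometry for high Ly6C and for CD11b, without Ly6G and without MHC-II. The gate was thus set to leave out the MHC-II-positive cells of the same sites, and how fully it did so was not tested. The labels name no transgene, drug or age for these libraries, and they do not say that the 3 libraries of a group came from separate mice. The p-values therefore measure the spread between these libraries, which may be technical.

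Cells limit protein synthesis under stress by phosphorylating the initiation factor eIF2alpha. The kinases PERK (gene Eif2ak3), for misfolded protein in the ER, and GCN2 (Eif2ak4), for amino acid shortage, both do so, and the phosphorylation favors translation of ATF4, which induces genes of amino acid uptake and synthesis as well as the factor CHOP (Ddit3). A separate branch of the ER response runs through IRE1 (Ern1), which splices the Xbp1 transcript, and through ATF6, which is cleaved to a transcription factor, and these raise chaperones such as BiP (Hspa5). Phosphorylation, cleavage, splicing and ATF4 translation are not read by gene-level counts, so the values below are transcript amounts only.

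Total counts were 10457492 to 20706412 per library. Levels are given in CPM, the count scaled to the library total, and 3 counts, taken as the floor of detection, were worth 0.145 to 0.287 CPM. The 40 genes together took 0.506% to 0.579% of all counts in healthy blood, 0.596% to 0.629% in LLC blood and 0.787% to 0.860% in LLC tumor, without overlap between the groups. Of the 40 genes, 38 passed the filter on low counts, and a gene was called changed at an adjusted p under 0.05 among the 12337 genes tested. Chac1, a glutathione-degrading enzyme, had 0 to 7 counts per library and Vldlr, a lipoprotein receptor, had 0 to 13, so neither was tested. The gate markers gave Itgam (CD11b) at 893 to 949 CPM in healthy blood, 1337 to 1490 in LLC blood and 3193 to 3720 in LLC tumor, and Ly6c2 at 1571 to 1728, 1099 to 1237 and 272 to 472 CPM. The MHC-II gene H2-Aa was at 116 to 255, 33.8 to 73.7 and 18.7 to 59.5 CPM. In these sorted bulk samples, fewer cells with a transcript and less transcript per cell cannot be told apart.

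In LLC tumor against LLC blood, 30 of the 38 genes were called (78.9%), where 61.3% of all tested genes were. Of these, 21 rose and 9 fell, beside 29.6% higher and 31.7% lower over all genes, and 14 rose at least 2-fold, beside 17.3% over all genes. The CPM ranges of the groups did not overlap for 28 of the 38 genes (68.3% of all genes). The ATF4 arm held 11 genes that rose, 2 that fell and 2 that were not called, with a median log2 fold change of 1.59. The chaperone arm held 9 that rose, 3 that fell and 5 that were not called, with a median of 0.39. The median over all genes was -0.03, and 9 of 15 tested ATF4 arm genes and 5 of 17 chaperone arm genes rose at least 2-fold. Of the sensors and regulators, 1 rose, 4 fell and 1 was not called.

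**Figure D1:**
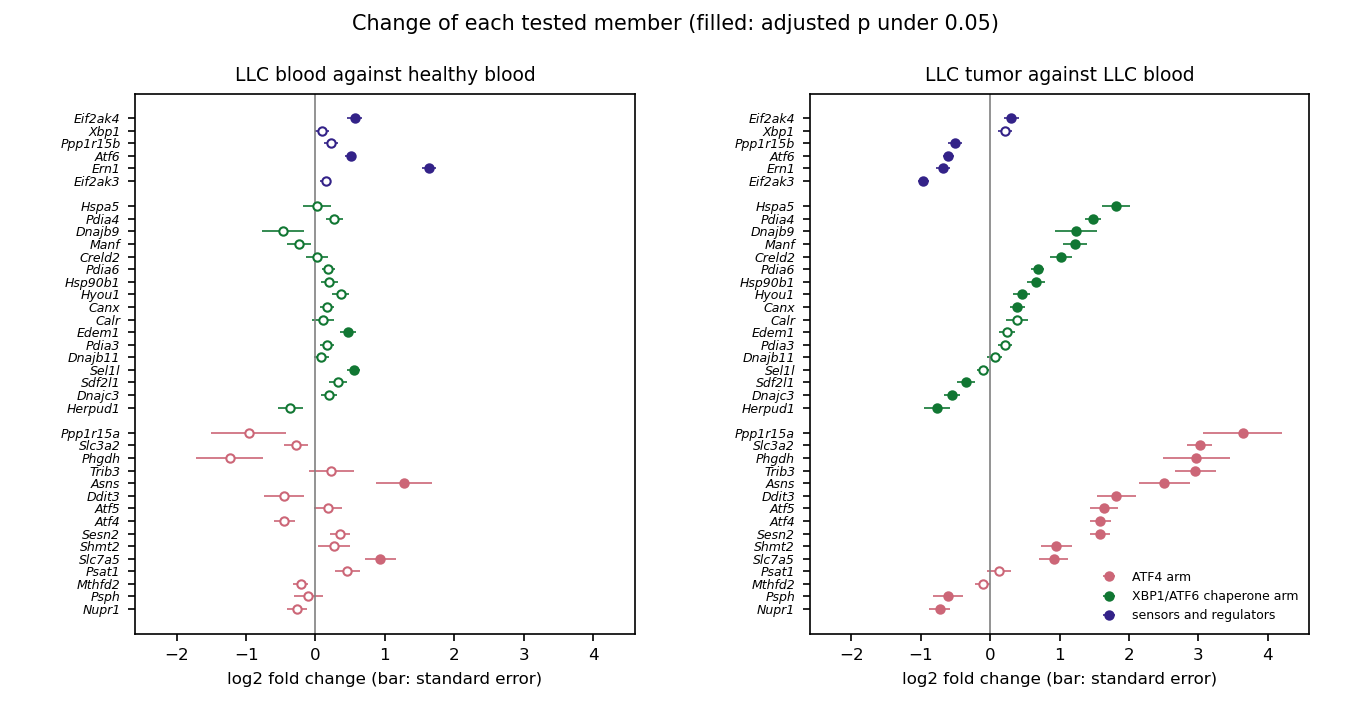
Log2 fold change of each of the 38 tested genes (points, with standard error bars) in LLC blood against healthy blood (left) and LLC tumor against LLC blood (right), grouped and colored by arm; filled points have an adjusted p under 0.05 and open points do not. In LLC tumor the ATF4 arm reaches 3.64 (Ppp1r15a) and the chaperone arm 1.81 (Hspa5), while 4 of the 6 sensors and regulators lie below 0 with filled points.

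In LLC blood against healthy blood, 7 of the 38 genes were called (18.4%), where 23.6% of all tested genes were, and all 7 were higher (14.0% of all genes were higher and 9.61% lower). At least 2-fold were Ern1 and Asns (2 genes, with 3.24% of all genes), and the ranges of the groups did not overlap for 22 of 38 genes (51.4% of all genes). They were the sensors Ern1, Atf6 and Eif2ak4, the amino acid genes Asns and Slc7a5, and the ER degradation genes Edem1 and Sel1l. The count and its direction depended on the setting: limma-voom with sample weights called 21 (12 higher, 9 lower), the 6 blood libraries alone gave 18 (11 and 7), leaving out LLC tumor replicate 1 gave 16 (8 and 8) and leaving out LLC blood replicate 2 gave 4. Calls over all genes moved with these settings too: 5884, 4889, 5064 and 1494 in the same order, beside 2917 in the main fit. Of those calls 51%, 50.7%, 43.1% and 68.7% were higher, beside 59.4% in the main fit. By limma-voom the ATF4 arm held 4 genes that rose and 7 that fell. T and NK cell markers also moved between the blood groups: healthy blood libraries summed to between 213 and 566 CPM, LLC blood libraries to between 39.2 and 60.5 CPM, and 10 of 11 tested were lower (9.61% of all genes). Dendritic cell markers summed to 267 to 285 CPM and 121 to 180 CPM, with 5 of 7 tested lower. The part of these cells in the blood values was not tested. The median was -0.10 in the ATF4 arm and 0.17 in the chaperone arm, with -0.01 over all genes. In LLC tumor against healthy blood, 35 of 38 were called (92.1%, with 66.5% of all genes), 28 higher and 7 lower (33.5% and 33.0% of all genes). Here 14 rose at least 2-fold (19.7% of all genes), Herpud1 fell at least 2-fold (12.7% of all genes), and the ranges did not overlap for 33 of 38 genes (70.6% of all genes). The comparisons share the LLC blood, LLC tumor or healthy blood libraries in pairs, so their values are given side by side and no relation between them was computed.

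Promoter sequences are shown because both arms are known for their own promoter elements. RefSeq windows of 300 bases (250 before to 50 after the gene start, build GRCm38.p6) were at hand for 35 of the 40 genes, and those of Slc7a5, Manf, Hyou1, Atf6 and Ppp1r15b were not used. All windows of a gene were searched on both strands, a gene was counted once if any of its windows held the motif, and no matches of different motifs overlapped in the members' windows. The core of the composite element that ATF4 binds, TGATGNAA, was found in 5 of 16 ATF4 arm genes (31.2%), in 1 of 15 chaperone arm genes (6.67%) and in 4.51% of 27025 genes. The ER stress element (CCAAT, then 9 bases, then CCACG) was in 7 of 15 chaperone arm genes (46.7%) and in 0.137% of all genes, and its second form (ATTGG, 1 base, CCACG) was in 2 of 15 (13.3%) and in 0.0444%. Neither form was found in the windows of the 16 ATF4 arm genes. The unfolded protein response element TGACGTGG was in 0 members and in 0.714% of all genes. A match describes these letters and says nothing on binding in these cells.

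Matched stretches of the ATF4 arm follow, read 5′ to 3′ on the gene's strand with 11 bases on each side and the core in capitals (the reverse complement in Trib3, Nupr1 and Chac1). They are Asns at chr6:7693214-7693243 (minus strand), Trib3 at chr2:152344028-152344057 (minus), Nupr1 at chr7:126625562-126625591 (minus) and Chac1 at chr2:119351038-119351067 (plus). The Asns match began 23 bases before the gene start, and the Trib3 match lay after it.
Asns: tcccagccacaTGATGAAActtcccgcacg
Trib3: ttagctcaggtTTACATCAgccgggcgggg
Nupr1: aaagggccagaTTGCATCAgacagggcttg
Chac1: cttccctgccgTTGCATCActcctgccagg

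Matched stretches of the chaperone arm are shown for 3 genes that rose in LLC tumor and 2 that fell, with the whole element in capitals. They are Hspa5 at chr2:34772014-34772054 (plus), Creld2 at chr15:88819509-88819549 (plus, element reversed), Pdia6 at chr12:17266480-17266520 (plus), Dnajc3 at chr14:118937816-118937856 (plus) and Herpud1, which holds the second form, at chr8:94386366-94386398 (plus).
Hspa5: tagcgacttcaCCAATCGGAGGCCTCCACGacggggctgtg
Creld2: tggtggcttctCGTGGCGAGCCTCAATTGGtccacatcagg
Pdia6: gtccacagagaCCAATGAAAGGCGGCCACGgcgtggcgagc
Dnajc3: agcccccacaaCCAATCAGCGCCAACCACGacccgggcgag
Herpud1: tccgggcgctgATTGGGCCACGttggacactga

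Genes that shared an element did not all move alike in LLC tumor against LLC blood. Of the 5 ATF4 arm genes with the core, Trib3 and Asns rose, Nupr1 fell, and Chac1 and Vldlr were not tested. Of the 11 without it, 8 rose, 1 fell and 2 were not called. Of the 9 chaperone arm genes with either form of the ER stress element, 5 rose (Hspa5, Hsp90b1, Pdia6, Canx and Creld2), Dnajc3 and Herpud1 fell, and Calr and Dnajb11 were not called. Of the 6 without it, 2 rose, 1 fell and 3 were not called. Over all tested genes 29.6% were called higher and 31.7% lower in this comparison. The groups are small, and no relation between an element and the change was tested.

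By mean CPM, Ern1, Atf6, Eif2ak3 and Ppp1r15b were highest in LLC blood, although Eif2ak3 and Ppp1r15b were not called there against healthy blood. Eif2ak3, Atf6 and Ppp1r15b were lowest in LLC tumor by mean CPM, although Atf6 was not called there against healthy blood. Ern1, encoding the nuclease sensor IRE1, was at 52.9, 56.6 and 44.0 CPM in healthy blood, 166, 159 and 160 CPM in LLC blood and 73.8, 92.1 and 99.6 CPM in LLC tumor. No group overlapped another. Ern1 rose in LLC blood with a log2 fold change of 1.63 ± 0.10 (SE; 3.11-fold, adjusted p = 2.3e-05), the largest of the 38 genes there. In LLC tumor it was lower than in LLC blood by 1.60-fold (log2 fold change -0.68 ± 0.10, adjusted p = 0.000225) and higher than in healthy blood by 1.94-fold (log2 fold change 0.96, adjusted p = 2.56e-05).

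Atf6, the sensor that is cleaved to a transcription factor, had 204, 193 and 195 CPM in healthy blood, 266, 293 and 298 CPM in LLC blood and 154, 173 and 163 CPM in LLC tumor. The LLC blood libraries were above all others. It rose 1.42-fold in LLC blood (log2 fold change 0.51 ± 0.08, adjusted p = 0.00239) and was 1.52-fold lower in LLC tumor than in LLC blood (log2 fold change -0.61 ± 0.08, adjusted p = 0.000147). Against healthy blood the tumor value was not called (log2 fold change -0.10, adjusted p = 0.309).

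Eif2ak3, encoding the ER kinase PERK, was at 76.0, 79.7 and 69.5 CPM in healthy blood, 80.9, 84.5 and 88.4 CPM in LLC blood and 31.9, 41.8 and 40.4 CPM in LLC tumor. The LLC tumor libraries lay below both blood groups, and Eif2ak3 fell 1.95-fold against LLC blood (log2 fold change -0.97 ± 0.08, adjusted p = 6.31e-06) and 1.76-fold against healthy blood (-0.82, adjusted p = 1.49e-05). Eif2ak4, encoding the amino acid sensor GCN2, moved the other way. Its level was 19.5, 16.2 and 18.3 CPM in healthy blood, 25.9, 27.7 and 27.7 CPM in LLC blood and 22.9, 35.2 and 30.3 CPM in LLC tumor. It rose 1.48-fold in LLC blood (log2 fold change 0.56 ± 0.10, adjusted p = 0.00492) and was 1.24-fold higher again in LLC tumor (log2 fold change 0.31 ± 0.10, adjusted p = 0.028), a call that 9 of 18 alternative analyses lost. The CPM ranges of LLC tumor and LLC blood overlapped. Scaled for library composition, the tumor libraries (0.72, 1.02 and 0.85 as log2 CPM minus the healthy blood mean) lay above LLC blood (0.50, 0.58 and 0.61).

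Xbp1, the transcript that IRE1 splices, was at 358, 382 and 356 CPM in healthy blood, 380, 397 and 416 CPM in LLC blood and 396, 386 and 415 CPM in LLC tumor. Neither step was called (log2 fold change 0.10 ± 0.10, adjusted p = 0.529, in LLC blood, and 0.21 ± 0.10, adjusted p = 0.0972, in LLC tumor against LLC blood), and LLC tumor was 1.24-fold above healthy blood (adjusted p = 0.0225), a call lost in 5 of 18 alternatives. The counts do not separate its spliced and unspliced forms. Ppp1r15b, the constitutive subunit that directs a phosphatase to eIF2alpha, had 399, 371 and 343 CPM in healthy blood, 401, 461 and 465 CPM in LLC blood and 262, 275 and 272 CPM in LLC tumor. It was lowest in LLC tumor, 1.42-fold under LLC blood (log2 fold change -0.51 ± 0.10, adjusted p = 0.00205).

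**Figure D2:**
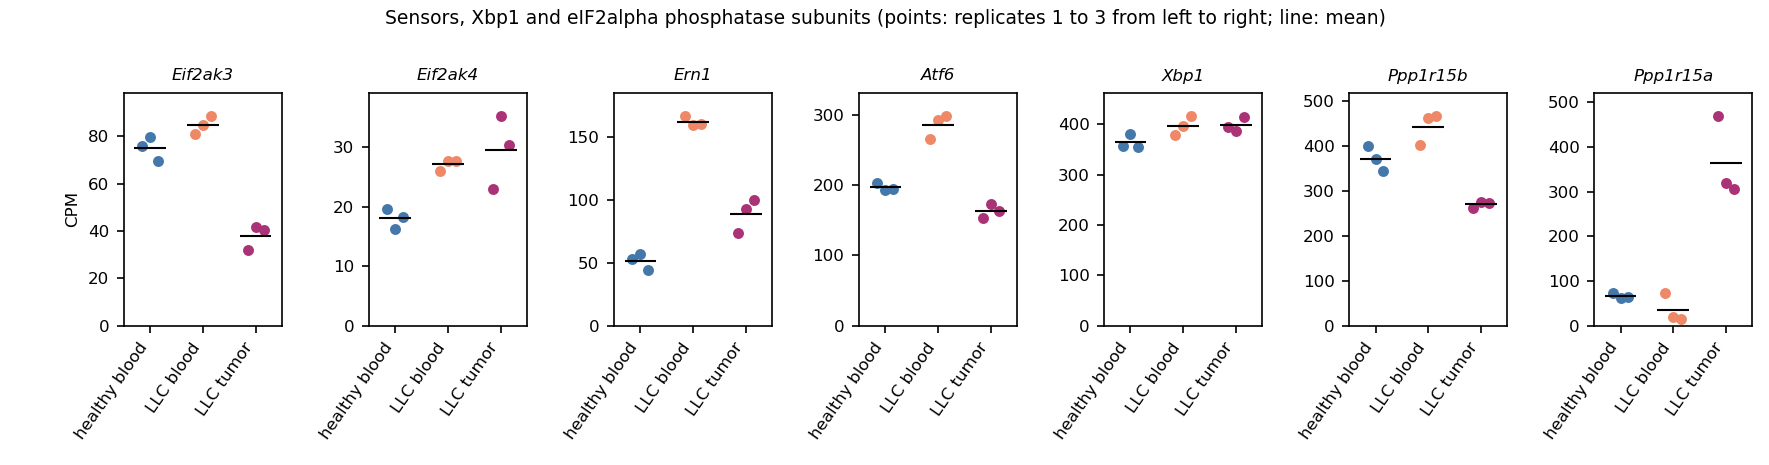
CPM of the 6 sensors and regulators and of Ppp1r15a in each library (points, replicates 1 to 3 from left to right; line, group mean), each panel on its own linear scale from 0. Ern1 and Atf6 peak in LLC blood, Eif2ak3 and Ppp1r15b are lowest in LLC tumor, and Ppp1r15a reaches 306 to 469 CPM in LLC tumor.

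Ppp1r15a encodes GADD34, the inducible counterpart of Ppp1r15b and an ATF4 arm gene. It was at 72.3, 62.4 and 63.5 CPM in healthy blood, 73.1, 18.3 and 14.7 CPM in LLC blood and 469, 319 and 306 CPM in LLC tumor. The tumor libraries were above all blood libraries, while LLC blood replicate 1 lay with healthy blood and apart from its own group. The increase in LLC tumor was 12.4-fold over LLC blood, the largest of the 38 genes (log2 fold change 3.64 ± 0.57, adjusted p = 0.00045), and 6.38-fold over healthy blood (log2 fold change 2.67, adjusted p = 0.00189). The blood comparison was not called with all libraries (log2 fold change -0.96, adjusted p = 0.228) and gave a decrease without LLC blood replicate 1 (log2 fold change -2.02, adjusted p = 0.0024). Without that replicate the tumor increase over LLC blood was 4.69 on the log2 scale (adjusted p = 1.19e-05).

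A list of 19 dissociation stress and immediate early genes, which respond to tissue handling as well as to signals, had summed levels of 9942, 7984 and 7446 CPM in healthy blood, 7014, 4131 and 4262 CPM in LLC blood and 19770, 16929 and 16158 CPM in LLC tumor. LLC blood replicate 1 and LLC tumor replicate 1 were the highest of their groups, as they were for Ppp1r15a. Of the 19, 18 were called higher in LLC tumor against LLC blood (94.7% of the list, 29.6% of all genes) and 1 was not called, with Ier3 at a log2 fold change of 5.84. In LLC blood against healthy blood 1 was higher (Ier3) and 5 were lower (5.26% and 26.3% of the list, 14.0% and 9.61% of all genes). The part of handling in the tumor values of Ppp1r15a, Ddit3, Atf4 and Hspa5 was not tested.

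The transcription factors of the ATF4 arm rose together in LLC tumor, except Nupr1. Atf4 itself was at 181, 172 and 169 CPM in healthy blood, 135, 126 and 128 CPM in LLC blood and 377, 337 and 292 CPM in LLC tumor. The groups were fully apart, with LLC blood lowest. Atf4 rose 3.01-fold in LLC tumor over LLC blood (log2 fold change 1.59 ± 0.15, adjusted p = 1.76e-05) and 2.20-fold over healthy blood (1.14, adjusted p = 0.000113). The lower level in LLC blood missed the threshold (log2 fold change -0.45 ± 0.15, adjusted p = 0.0537), and 11 of 18 alternatives called it.

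Ddit3, encoding the pro-apoptotic factor CHOP, was at 10.8, 11.2 and 11.2 CPM in healthy blood, 10.2, 6.57 and 8.02 CPM in LLC blood and 33.4, 19.5 and 21.0 CPM in LLC tumor. All tumor libraries were above all blood libraries, with replicate 1 highest. The increase over LLC blood was 3.53-fold (log2 fold change 1.82 ± 0.29, adjusted p = 0.000439) and 2.57-fold over healthy blood. Trib3, a pseudokinase induced by ATF4 and CHOP, went from 0.929, 0.553 and 0.491 CPM in healthy blood and 0.861, 0.830 and 0.676 CPM in LLC blood to 4.51, 5.85 and 5.70 CPM in LLC tumor. The blood levels were a few times the floor. Its increase over LLC blood was 7.75-fold (log2 fold change 2.95 ± 0.30, adjusted p = 2.74e-05), and it was not called between the blood groups (log2 fold change 0.23, adjusted p = 0.678).

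Atf5, a factor translated under the same control as ATF4, and Sesn2, a stress-induced inhibitor of mTORC1 signaling, rose 3.12-fold and 2.99-fold in LLC tumor over LLC blood. Sesn2 was at 13.5 to 18.4 CPM in healthy blood, 19.8 to 22.6 in LLC blood and 53.5 to 56.7 in LLC tumor. Atf5 had fractional counts in 9 of 9 libraries, as estimated counts have where reads are divided between entries, so its values are uncertain. Nupr1, a small chromatin-associated stress protein, fell in LLC tumor, from 67.9 to 76.2 CPM in LLC blood to 34.5 to 42.0 CPM (1.66-fold, log2 fold change -0.73, adjusted p = 0.00206).

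**Figure D3:**
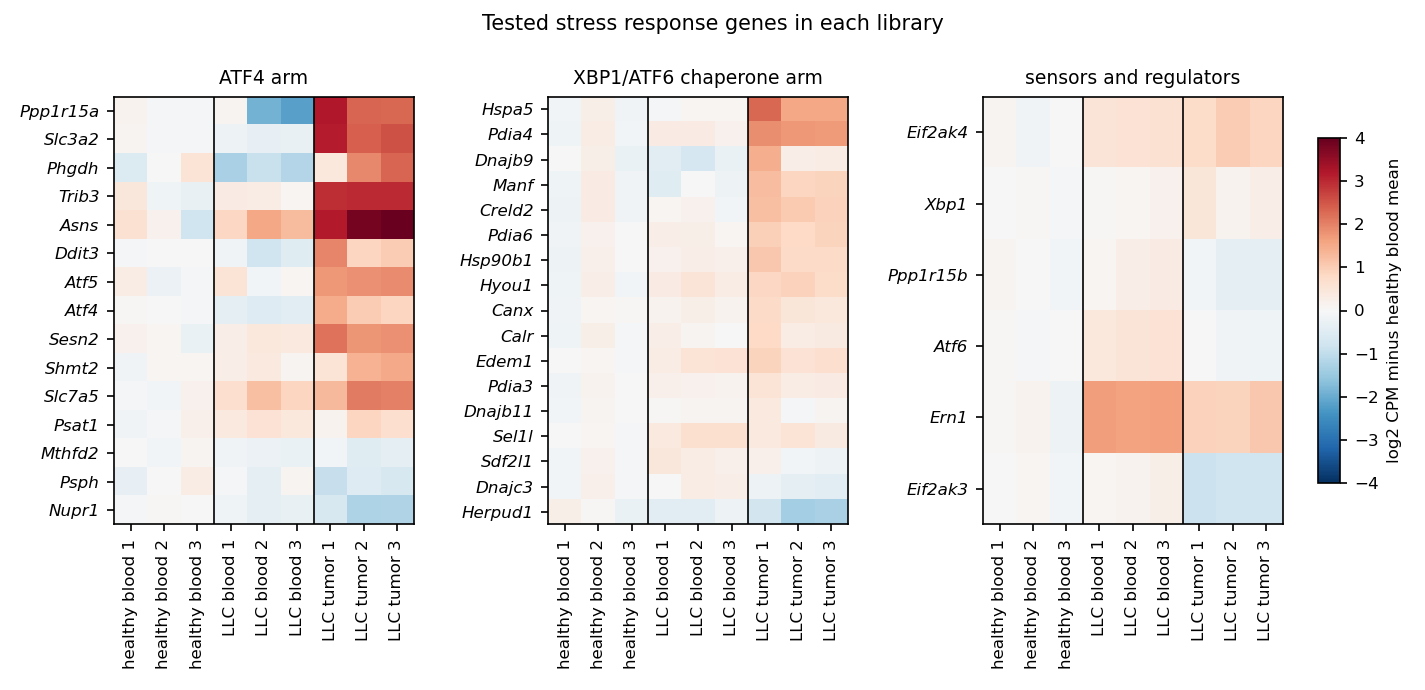
TMM-scaled log2 CPM of each tested gene in each of the 9 libraries minus its healthy blood mean, by arm, ordered by the change in LLC tumor against LLC blood (red, higher; blue, lower; vertical lines part the groups). The red block of the ATF4 arm in the LLC tumor columns covers its upper rows, from Ppp1r15a to Slc7a5, and the chaperone arm is paler apart from Hspa5 and Pdia4.

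Transcripts of both subunits of the large neutral amino acid transporter rose in LLC tumor, and transport itself was not measured. Slc3a2, its heavy chain, which also carries the cystine transporter, was at 65.7, 60.02 and 59.0 CPM in healthy blood, 54.1, 50.9 and 49.98 CPM in LLC blood and 420, 313 and 339 CPM in LLC tumor. The tumor libraries stood far above all blood libraries. The increase was 8.09-fold over LLC blood (log2 fold change 3.02 ± 0.18, adjusted p = 1.16e-06) and 6.66-fold over healthy blood (adjusted p = 1.58e-06). Slc7a5, the light chain that moves leucine and other large amino acids, was at 8.79, 8.66 and 10.5 CPM in healthy blood, 15.2, 22.3 and 16.9 CPM in LLC blood and 17.7, 37.9 and 35.9 CPM in LLC tumor. It had risen in LLC blood already, by 1.91-fold (log2 fold change 0.94 ± 0.22, adjusted p = 0.0145), although leaving out healthy blood replicate 1 or 2 or LLC blood replicate 2 ended that call (adjusted p = 0.0527, 0.0686 and 0.0677). LLC tumor was 1.88-fold above LLC blood (log2 fold change 0.91 ± 0.21, adjusted p = 0.00444), with replicate 1 among the LLC blood values by CPM. As TMM-scaled log2 CPM minus the healthy blood mean, tumor replicate 1 (1.29) lay above the LLC blood libraries (0.68, 1.21 and 0.85).

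Asns, encoding asparagine synthetase, showed the largest increase of the 38 genes from healthy blood to LLC tumor. It was at 1.36, 0.983 and 0.429 CPM in healthy blood, 1.63, 2.84 and 2.27 CPM in LLC blood and 6.86, 13.5 and 14.2 CPM in LLC tumor. The groups did not overlap at either step. Asns rose 2.42-fold in LLC blood (log2 fold change 1.27 ± 0.41, adjusted p = 0.0491), a call at the threshold that 11 of 18 alternatives lost, among them leaving out healthy blood replicate 2 or 3, LLC blood replicate 2 or 3, or LLC tumor replicate 2 or 3 (adjusted p = 0.126, 0.134, 0.167, 0.128, 0.0627 and 0.0685). It rose 5.70-fold in LLC tumor over LLC blood (log2 fold change 2.51 ± 0.37, adjusted p = 0.000297) and 13.8-fold over healthy blood (log2 fold change 3.78, adjusted p = 3.36e-05).

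Of 5 serine and one-carbon enzymes, Phgdh and Shmt2 rose in LLC tumor over LLC blood, Psph fell, and Psat1 and Mthfd2 were not called, which is 60% called beside 61.3% of all genes. Phgdh, the first enzyme of serine synthesis, was at 2.79, 4.18 and 6.07 CPM in healthy blood, 1.61, 2.21 and 1.79 CPM in LLC blood and 4.33, 15.5 and 20.2 CPM in LLC tumor. All tumor libraries exceeded LLC blood, but replicate 1 lay within the healthy blood range. The increase was 7.82-fold over LLC blood (log2 fold change 2.97 ± 0.48, adjusted p = 0.000548) and 3.32-fold over healthy blood (1.73, adjusted p = 0.00723). In LLC blood the level was lower without a call (log2 fold change -1.24, adjusted p = 0.0936). Phgdh had fractional counts in 2 of the 9 libraries, so its values carry the same caution as those of Atf5; Hspa5, Dnajb9 and Canx had them in 1 library each.

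Psat1, the next enzyme of the pathway, was at 17.5, 18.6 and 22.5 CPM in healthy blood, 25.9, 30.2 and 26.1 CPM in LLC blood and 16.6, 34.2 and 29.1 CPM in LLC tumor. By CPM, tumor replicate 1 was the lowest library of all and replicate 2 the highest, and the comparison with LLC blood was not called (log2 fold change 0.13, adjusted p = 0.533). As TMM-scaled log2 CPM minus the healthy blood mean, tumor replicate 1 (0.15) lay within the healthy blood range (-0.15, -0.07 and 0.21). Without LLC tumor replicate 1 it was called higher (log2 fold change 0.34, adjusted p = 0.0295). Mthfd2, a mitochondrial folate enzyme, was at 41.7, 38.7 and 44.6 CPM in healthy blood, 38.6, 36.7 and 34.6 CPM in LLC blood and 29.6, 28.5 and 30.2 CPM in LLC tumor. Its CPM ranges did not overlap between LLC blood and LLC tumor, but after normalization for library composition the tumor change against LLC blood was -0.11 on the log2 scale and was not called (adjusted p = 0.407). Psph, which completes serine synthesis, went from 6.16 to 8.35 CPM in LLC blood to 3.07 to 5.14 CPM in LLC tumor (log2 fold change -0.61, adjusted p = 0.0379), a call that 10 of 18 alternatives lost. Shmt2, which passes the carbon of serine to folate, was at 13.5, 30.6 and 32.6 CPM in LLC tumor and 13.2 to 16.5 CPM in LLC blood (1.94-fold, adjusted p = 0.00467).

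LLC tumor replicate 1 differed from replicates 2 and 3 in this set of metabolic genes. By CPM it was the lowest tumor library for Asns, Phgdh, Psat1, Psph, Shmt2 and Slc7a5, and the highest for Slc3a2, Ppp1r15a, Ddit3, Atf4, Hspa5 and Dnajb9. A list of 12 fibroblast, endothelial and epithelial marker genes summed to 20.5 to 29.9 CPM in healthy blood, to 423, 17.5 and 17.9 CPM in LLC blood and to 934, 3392 and 3789 CPM in LLC tumor. The sum was thus also lowest in tumor replicate 1. Of 11 tested markers, 8 were higher in LLC tumor than in LLC blood (72.7% of those tested, 29.6% of all genes) and 3 were not called. Col3a1 made up most of the tumor sum (713, 2801 and 3099 CPM). Of the epithelial markers, Epcam was at 0, 0 and 0.17 CPM in LLC tumor, and Krt8 and Krt18 are not given singly. Epcam alone therefore does not show how much epithelial tumor cell transcript these libraries held. All 11 tested markers had a positive log2 fold change against LLC blood, from 0.40 to 7.80. Against healthy blood 10 of the 11 were called higher (33.5% of all genes). LLC blood replicate 1, with Col1a1 at 212 CPM, had the lowest Asns and Phgdh of its group. Without LLC tumor replicate 1 the log2 fold changes over LLC blood were 2.73 for Asns, 3.37 for Phgdh, 1.23 for Shmt2, 1.15 for Slc7a5 and 2.79 for Slc3a2, all called. Erythroid markers summed to 168 to 919 CPM in LLC blood and 1.08 to 3.46 CPM in LLC tumor, with 5 of 5 tested lower. For T and NK cell markers the sums were 39.2 to 60.5 and 4.58 to 8.95 CPM, with 8 of 11 lower. Neutrophil markers summed to 787 to 1251 and 340 to 622 CPM, with 4 of 10 lower and 1 higher. Over all genes 31.7% were lower. The part of other cells in the blood and tumor values of the members was not tested.

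**Figure D4:**
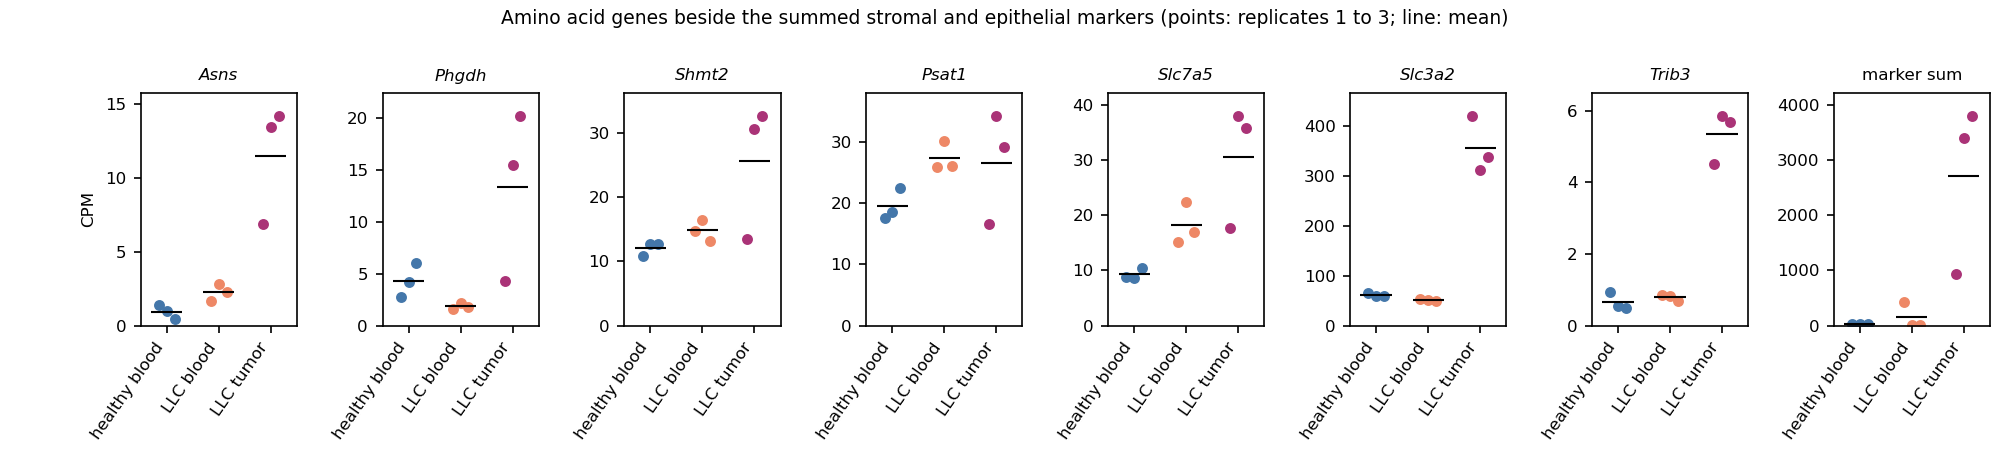
CPM of 7 amino acid and ATF4 target genes and, in the last panel, the sum of 12 fibroblast, endothelial and epithelial markers in each library (points, replicates 1 to 3 from left to right; line, group mean), each on its own linear scale from 0. Tumor replicate 1 is the lowest tumor point for Asns, Phgdh, Shmt2, Psat1, Slc7a5, Trib3 and the marker sum, and the highest for Slc3a2. Scaled by TMM, Trib3 was nearly level in the tumor libraries (2.94, 2.99 and 3.00 as log2 CPM minus the healthy blood mean).

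In the chaperone arm the 5 largest increases in LLC tumor over LLC blood were those of BiP, an oxidoreductase, a BiP cochaperone and a pair of secreted stress proteins. Hspa5, encoding BiP, the main ER chaperone, was at 461, 594 and 459 CPM in healthy blood, 486, 544 and 538 CPM in LLC blood and 1898, 1427 and 1374 CPM in LLC tumor. The tumor libraries were above every blood library, and the blood groups overlapped. Hspa5 rose 3.51-fold over LLC blood (log2 fold change 1.81 ± 0.21, adjusted p = 6.11e-05) and was not called between the blood groups (log2 fold change 0.02, adjusted p = 0.954). Pdia4, a protein disulfide isomerase, was at 60.03, 83.4 and 63.4 CPM in healthy blood, 88.1, 88.7 and 77.8 CPM in LLC blood and 190, 222 and 207 CPM in LLC tumor. It rose 2.79-fold over LLC blood (log2 fold change 1.48 ± 0.12, adjusted p = 7.57e-06), with no overlap.

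Dnajb9, which encodes the BiP cochaperone ERdj4, was at 50.2, 58.9 and 41.3 CPM in healthy blood, 37.1, 32.4 and 41.6 CPM in LLC blood and 106, 57.6 and 56.9 CPM in LLC tumor. Replicate 1 stood above the other tumor libraries. The increase over LLC blood was 2.35-fold (log2 fold change 1.23 ± 0.31, adjusted p = 0.00627) and came to 0.75 on the log2 scale without LLC tumor replicate 1 (adjusted p = 0.00197). Against healthy blood it was 1.71-fold (adjusted p = 0.046), a call that 13 of 18 alternatives lost.

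Manf, a secreted protein of the ER response, was at 64.2, 90.2 and 65.1 CPM in healthy blood, 53.0, 74.0 and 62.9 CPM in LLC blood and 131, 128 and 124 CPM in LLC tumor. It rose 2.33-fold over LLC blood (log2 fold change 1.22 ± 0.17, adjusted p = 2e-04). Creld2, another secreted ER stress protein, was at 17.9, 26.1 and 18.8 CPM in healthy blood, 22.0, 23.9 and 19.4 CPM in LLC blood and 37.2, 40.9 and 36.6 CPM in LLC tumor. It rose 2.03-fold (log2 fold change 1.02 ± 0.15, adjusted p = 0.000336). Both stood apart from all blood libraries in the tumor, and the blood groups overlapped.

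Herpud1, a scaffold of ER-associated degradation, fell while these chaperones rose. It was at 149, 129 and 104 CPM in healthy blood, 95.9, 95.5 and 111 CPM in LLC blood and 58.2, 47.1 and 47.4 CPM in LLC tumor. The tumor libraries were below all others, 1.70-fold under LLC blood (log2 fold change -0.77 ± 0.18, adjusted p = 0.00507) and 2.19-fold under healthy blood (-1.13, adjusted p = 0.000476). Dnajc3, a BiP cochaperone also known as an inhibitor of eIF2alpha kinases, fell 1.46-fold, from 152 to 189 CPM in LLC blood to 98.1 to 111 CPM. Sdf2l1, a BiP-associated protein, fell 1.28-fold (adjusted p = 0.0383), and 7 of 18 alternatives did not call it.

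Among the degradation genes, Sel1l and Edem1 were higher in LLC blood and were not called in the tumor against LLC blood. Sel1l, the adaptor of the degradation ligase, was at 117, 125 and 113 CPM in healthy blood, 156, 189 and 183 CPM in LLC blood and 120, 168 and 143 CPM in LLC tumor. It rose 1.46-fold in LLC blood (log2 fold change 0.55 ± 0.09, adjusted p = 0.00285), and the tumor value against LLC blood was -0.11 on the log2 scale (adjusted p = 0.33). Edem1, a mannosidase-like protein that sends misfolded glycoproteins to degradation, was at 336, 358 and 322 CPM in healthy blood, 421, 508 and 504 CPM in LLC blood and 480, 491 and 499.5 CPM in LLC tumor. It rose 1.38-fold in LLC blood (log2 fold change 0.47 ± 0.11, adjusted p = 0.0143), and leaving out healthy blood replicate 1 or 3 or LLC blood replicate 2 or 3 ended that call (adjusted p = 0.0533, 0.0685, 0.0611 and 0.0641). The tumor step was not called (log2 fold change 0.24, adjusted p = 0.0803), except with RLE factors and DESeq2 (adjusted p = 0.0332 and 0.0154).

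Of the folding genes not yet described, Dnajb11, a BiP cochaperone, was at 116, 134 and 126 CPM in healthy blood, 130, 139 and 137 CPM in LLC blood and 126, 117 and 125 CPM in LLC tumor, and no comparison called it (adjusted p = 0.611, 0.606 and 0.236). Hsp90b1, the ER form of HSP90, Pdia6, an oxidoreductase, Hyou1, a large chaperone, and Canx, the lectin calnexin, rose in LLC tumor over LLC blood with log2 fold changes of 0.66, 0.69, 0.45 and 0.39. The lectin calreticulin (Calr) and its partner Pdia3 were not called there (adjusted p = 0.0613 and 0.0864). Calr was called higher in 6 of 18 alternatives and Pdia3 in 2, RLE factors and DESeq2, and scaling by library totals alone left Canx and Hyou1 uncalled.

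Healthy blood replicate 2 had the highest CPM of its group for every chaperone arm gene except Herpud1. A list of B cell and plasma cell markers summed to 185 CPM in that library and to 23.7 and 29.7 CPM in the others, with Cd79a at 48.5 CPM. In LLC tumor the same list summed to 246 to 354 CPM, of which Sdc1 gave 244 to 352 CPM, while Cd79a, Ms4a1 and Mzb1 were at 0 in all 3 tumor libraries. Without healthy blood replicate 2, Pdia4 and Hyou1 became called higher in LLC blood (log2 fold change 0.37 and 0.46, adjusted p = 0.0306 and 0.0182). The part of B cells and plasma cells in the chaperone arm values was not tested.

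The arms were compared within each library by the median, over the tested genes of an arm, of log2 CPM (TMM-scaled, prior count 2) minus the healthy blood mean. The ATF4 arm median exceeded the chaperone arm median by 0.65, 1.21 and 1.43 in the LLC tumor libraries. In LLC blood the difference was -0.03, -0.45 and -0.09, and in healthy blood 0.13, -0.22 and 0.09. The tumor libraries did not overlap the blood libraries. By group the difference was 1.10 ± 0.40 (SD, n = 3) in LLC tumor, -0.19 ± 0.22 (SD, n = 3) in LLC blood and 0.00 ± 0.19 (SD, n = 3) in healthy blood. The difference between the arms' median log2 fold changes was 1.20 in LLC tumor against LLC blood, 1.02 in LLC tumor against healthy blood and -0.27 in LLC blood against healthy blood. These are descriptions of lists chosen with results of these data known, and no test was made over the genes of a list.

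**Figure D5:**
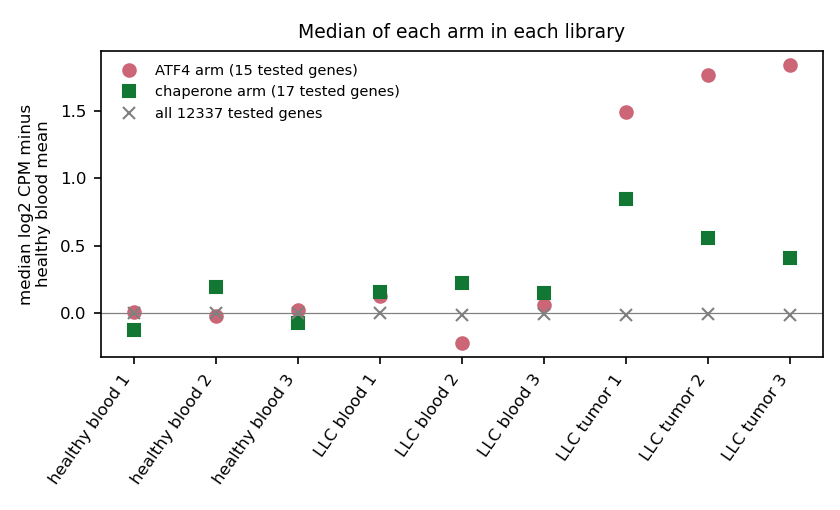
Median over the 15 tested ATF4 arm genes (circles), the 17 chaperone arm genes (squares) and all 12337 tested genes (crosses) of TMM-scaled log2 CPM minus the healthy blood mean, one point per library. In LLC tumor the ATF4 arm lies at 1.49, 1.77 and 1.84 and the chaperone arm at 0.84, 0.56 and 0.41, while all genes stay near 0.

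Tumor replicate 1 had the lowest ATF4 arm median and the highest chaperone arm median of its group, and its gap between the arms was the smallest. Within the chaperone arm the genes that rose at least 2-fold over LLC blood were Hspa5, Pdia4, Dnajb9, Manf and Creld2, and within the ATF4 arm Ppp1r15a, Slc3a2, Phgdh, Trib3, Asns, Ddit3, Atf5, Atf4 and Sesn2. The counts of calls in the chaperone arm moved with the scaling. Under library totals alone, which shift the median of all genes to -0.23 in this comparison, the ATF4 arm held 11 genes that rose and 3 that fell and the chaperone arm 7 and 3. With RLE factors, and likewise with DESeq2, the ATF4 arm held 11 and 1 and the chaperone arm 12 and 2. The larger count of higher calls in the chaperone arm stands over 17 tested genes, beside 15 in the ATF4 arm (main fit). Of the calls over all genes, 53% were higher with RLE factors and 55.2% with DESeq2, beside 48.3% in the main fit. The difference of the medians was 1.20 in both.

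Other genes of the integrated stress response followed in part. Of 20 tested from a list of 25, 13 rose and 4 fell in LLC tumor over LLC blood (65% and 20% of the list, 29.6% and 31.7% of all genes), and 7 rose and 3 fell in LLC blood over healthy blood (35% and 15% of the list, 14.0% and 9.61% of all genes). Slc7a11, the light chain of the cystine transporter that pairs with Slc3a2, was at 2.03, 2.38 and 2.12 CPM in healthy blood, 4.00, 5.08 and 4.88 CPM in LLC blood and 205, 214 and 191 CPM in LLC tumor. It rose at both steps (log2 fold change 1.07 ± 0.16, adjusted p = 0.00201, and 5.64 ± 0.14, adjusted p = 5.14e-08). Atf3, a factor that is also an immediate early gene, rose by 3.72 and Ddit4, an mTORC1 inhibitor also induced by hypoxia, by 3.12 on the log2 scale in LLC tumor over LLC blood. Cebpg, a dimer partner of ATF4, fell at both steps, from 149 to 210 CPM in healthy blood to 112 to 136 in LLC blood and 37.7 to 47.2 in LLC tumor. The interferon-induced eIF2alpha kinase PKR (Eif2ak2) rose in LLC blood (log2 fold change 0.60, adjusted p = 0.00729) and fell in LLC tumor against LLC blood (-1.03, adjusted p = 7.42e-05).

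The cytosolic aminoacyl-tRNA synthetases, several of which ATF4 is known to induce, charge tRNAs with amino acids. Of 20, 6 rose (30% of the list, 14.0% of all genes) and 14 were not called in LLC blood. In LLC tumor against LLC blood 7 rose and 4 fell, 55% of the list, beside 61.3% of all genes. Aars rose at both steps, from 35.9 to 41.3 CPM in healthy blood to 57.7 to 57.8 in LLC blood and 86.4 to 90.8 in LLC tumor. Eprs and Iars rose in LLC blood (log2 fold change 0.61 and 0.58), Cars and Dars in LLC tumor over LLC blood (0.96 and 0.63), while Vars and Wars fell there (-0.65 and -0.53).

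Of 37 tested further genes of ER folding, translocation and degradation, 14 rose and 5 fell in LLC tumor against LLC blood (51.4% of the list, 61.3% of all genes), and 4 rose and 2 fell in LLC blood against healthy blood (16.2% of the list, 23.6% of all genes). Ero1l, the oxidase that recharges disulfide isomerases and a known hypoxia target, was at 58.7, 57.3 and 58.3 CPM in healthy blood, 58.0, 71.6 and 64.5 CPM in LLC blood and 1163, 826 and 911 CPM in LLC tumor. Its increase was 17.5-fold over LLC blood (log2 fold change 4.13 ± 0.21, adjusted p = 5.23e-07). P4hb, a disulfide isomerase and prolyl hydroxylase subunit, rose 2.38-fold. The signal peptidase subunit Sec11c (log2 fold change -0.83), the degradation gene Edem2 (-0.56) and the translocon-associated Serp1 (-0.56) fell. In LLC blood Edem3, Uggt1 and Dnajc10, which handle misfolded glycoproteins and their disulfides, rose (log2 fold change 0.71, 0.64 and 0.45), as Edem1 and Sel1l did. Higher calls there made up 10.8% of this list and 14.0% of all genes, and lower calls 5.41% and 9.61%.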

How the data were processed

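The members and lists were chosen with earlier results of these data known. Of 31 samples in the series, the 9 RNA-seq libraries were used; the other 22 (chromatin assays) were not analysed here. The authors deposited expected counts per gene symbol, not normalized; 8.56% to 9.73% of values per library were fractional. The submitters' processing notes name Trim Galore, STAR 2.6.1d, Salmon 1.9.0, edgeR and the build mm10 without roles. Blood column heads carry the letters BM, taken here as blood monocyte since blood is the source in the titles; a bone marrow origin cannot be told apart from the table.

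Counts were rounded. One edgeR 4.0.16 quasi-likelihood fit (R 4.3.3) of all 9 libraries, with group as the only term, TMM factors and filterByExpr, kept 12337 genes. P-values were adjusted by Benjamini-Hochberg over all of them. SE is the log2 fold change divided by the square root of F. CPM uses library totals, while fold changes also use TMM factors (0.798 in LLC tumor replicate 1, 0.968 to 1.07 in the others), so CPM and fold changes can differ in sign for small changes. The floor of 3 counts covers counting error only. No 2 of the libraries were identical (36 pairs compared). The scripts were tested on simulated data.

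Values in every library are given for the 6 sensors and regulators, for the 6 largest and 2 smallest changes per arm in LLC tumor against LLC blood, for up to 4 members per arm called in blood, and for Atf4, Ddit3, Hspa5 and Xbp1; from each further list, at most 3 called genes per comparison and direction with a mean of at least 20 CPM are named. Slc7a11, Cebpg, Ero1l and Aars were chosen for values by library or range, and Slc7a11 for its blood change, after their values were seen. Alternatives were other normalizations (RLE, upper quartile, library totals), no count filter, DESeq2 1.42.0, limma-voom 3.58.1 with sample weights, the 6 compared libraries alone, a replicate block and leaving out each library. Gene names and promoters come from RefSeq (GRCm38.p6).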

Additional observations from a re-analysis of the deposited data

How the results depend on the processing

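No call reversed its direction under any of the 18 alternatives; uncalled values near 0 did cross it, such as Dnajb11 in LLC tumor against LLC blood (0.07, and -0.14 under library totals), Psat1 there (0.13 and -0.04), and Atf5, Psph, Hspa5, Creld2 and Calr in blood. Calls kept in all 18 were 4 of 7 in LLC blood against healthy blood, 25 of 30 in LLC tumor against LLC blood and 26 of 35 in LLC tumor against healthy blood. The blood count depended most on the setting: 21 members (12 higher, 9 lower) were called by limma-voom with sample weights, 18 (11 and 7) with the 6 blood libraries alone, and 4 (without LLC blood replicate 2) to 16 (8 and 8, without LLC tumor replicate 1) when 1 library was left out. Calls over all genes moved too, from 2917 to 5884, 4889, 1494 and 5064 in these settings, in the same order. Leaving out LLC blood replicate 1 and LLC tumor replicate 1 together, chosen after seeing the data for their marker sums, gave 17 (9 and 8), 31 and 36 called members in the 3 comparisons. That fit called 5364, 8567 and 9627 of all genes, beside 2917, 7566 and 8209 in the main fit. Leaving out 1 library gave 27 to 31 in LLC tumor against LLC blood and 30 to 35 against healthy blood. Over all genes these fits called 6895 to 8636 and 7571 to 9423. The difference between the arms' medians was -0.35 to -0.10 in blood, 1.12 to 1.23 in LLC tumor against LLC blood and 0.77 to 1.33 against healthy blood when 1 library was left out, and 1.42 against healthy blood by limma-voom. Library totals alone moved the median of all genes to -0.23 and -0.17 in the tumor comparisons and the share of higher calls over all genes from 48.3% to 36.3% and from 50.4% to 40.5%, with 18 members higher and 10 lower against LLC blood; upper-quartile factors moved that share from 59.4% to 46.3% in blood. The cause of these differences was not tested. Low counts limit Trib3, Asns and Phgdh most.

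Replicate numbers are shared between groups, but the libraries with the same number did not deviate together in every pair (correlations 0.05 to 0.30 in blood, -0.10 to 0.15 in LLC tumor against LLC blood and 0.02 to 0.08 against healthy blood), so the numbers were not taken as pairs. With the replicate block, 10, 29 and 33 members were called, and the arm differences were -0.26, 1.18 and 0.96. The same fit called 2788, 7455 and 8093 of all genes.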
